A study of Mus musculus with 12 samples.

Results

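The colony-stimulating factors and their receptors were followed as 7 genes, chosen by symbol and matched to the rows of the gene table by Ensembl identifier, of 55487 genes in all. The set held the ligands Csf1 and Il34, their receptor Csf1r, the GM-CSF receptor alpha chain Csf2ra, the beta chains Csf2rb and Csf2rb2, and the G-CSF receptor Csf3r. All 7 had a row, and 6 passed the filter on low counts that left 16908 genes for testing. Il34 did not pass it.

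Bulk RNA of sorted microglia was sequenced from YARG mice of postnatal day 13, as 12 libraries, 3 for each sex of the ARG1+ and of the ARG1- cells. In YARG mice, all groups included, a YFP reporter placed in the Arg1 locus marks the cells that use it, so ARG1+ and ARG1- stand for YFP+ and YFP- cells. The cells came from the tissue labelled brain (BF/striatum) and were selected as CX3CR1+ and CD206-. For each library, tissue was pooled from several brains of 1 sex, so no value belongs to a single animal. The paper describes sorting both populations from pooled tissue, with 3 litters per sex, so ARG1+ and ARG1- libraries of 1 sex likely share a pool. The labels do not say which libraries do, so each library is taken here as an independent replicate in the fits and permutations. The study compared ARG1+ with ARG1- microglia, in females and in males.

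CSF1 and IL-34 are the ligands of CSF1R, a receptor tyrosine kinase that microglia need to survive and to renew themselves. GM-CSF signals through a ligand-binding alpha chain paired with a beta chain, which is shared with the receptors of IL-3 and IL-5, and mice carry a second beta chain gene, Csf2rb2, whose product serves IL-3. G-CSF acts on CSF3R, a receptor best known on neutrophils. GM-CSF and G-CSF receptors have no kinase of their own and pass the signal to JAK kinases and STAT transcription factors.

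Of the 6 tested members, Csf1 and Csf2ra were higher in ARG1+ microglia, by 3.48-fold and 2.42-fold, and no member was called lower (limit on the adjusted p, 0.05). Across the 16908 genes tested, 15.9% were called in either direction, 6.44% as higher and 9.42% as lower. The ARG1+ libraries lay wholly above the ARG1- libraries for Csf1 and Csf2ra, as they did for 3.48% of all genes tested. Csf1r, the most abundant member by far, had means of 16185 and 16697 CPM in ARG1- and ARG1+ microglia.

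The promoters of the called pair, Csf1 and Csf2ra, are shown because they are the genes whose transcript levels separated the populations. Both are taken from RefSeq on GRCm38.p6 and cover 300 bases around the RefSeq start of the gene, mostly before it, on the strand of the gene. Capitals mark matches to GAGGAA, the core bound by the myeloid factor PU.1.
Csf1 promoter, chr3:107760420-107760719, minus strand: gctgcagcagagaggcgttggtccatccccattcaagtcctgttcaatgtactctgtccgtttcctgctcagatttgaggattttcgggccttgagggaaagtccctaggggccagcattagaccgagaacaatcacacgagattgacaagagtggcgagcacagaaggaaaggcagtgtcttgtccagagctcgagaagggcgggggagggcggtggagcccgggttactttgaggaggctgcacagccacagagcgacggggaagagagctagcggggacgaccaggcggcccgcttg
Csf2ra promoter, chr19:61228369-61228668, minus strand: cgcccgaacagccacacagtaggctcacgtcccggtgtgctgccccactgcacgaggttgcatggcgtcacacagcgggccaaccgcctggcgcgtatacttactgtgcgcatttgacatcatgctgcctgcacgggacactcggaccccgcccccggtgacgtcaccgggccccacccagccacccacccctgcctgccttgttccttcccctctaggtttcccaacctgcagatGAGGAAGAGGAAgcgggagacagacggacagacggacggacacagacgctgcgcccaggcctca

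The search covered both strands of each window for GAGGAA, for the AP-1 motif TGANTCA and for the STAT motif TTCNNNGAA. The Csf1 window, with a GC content of 58.7%, held none of these 3. The Csf2ra window, with a GC content of 65.3%, held GAGGAA at -14 and -8 from the RefSeq start, and neither of the others. Of 32851 promoter windows of the same length, 28.3% held GAGGAA, 7.81% TGANTCA and 8.30% TTCNNNGAA, so the first match is common. The windows of Csf3r and Csf2rb2 held GAGGAA at -86 and at -167 and +30, and that of Csf2rb2 also held TTCNNNGAA at -15. For Csf2ra and Csf3r the RefSeq start lies inside the gene as placed below from GENCODE M21, so their matches overlap that gene. Promoters of Il34, Csf1r and Csf2rb were not analysed here.

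Levels of each member are given as CPM, counts relative to the library total, scaled by TMM factors that make the bulk of the genes comparable between libraries. Total counts ranged from 28356659 to 60625170 per library, and a gene at 3 counts, taken as the limit under which it is read as absent, stood at 0.102 CPM or less. ARG1+ libraries had more genes with a count (19018 to 21734) than ARG1- libraries (17846 to 19844), with overlap. Arg1 itself was at 0 counts in every ARG1- library and averaged 0.258 ± 0.600 CPM in ARG1+ libraries (SD, n = 6), with at most 52 counts. Its transcript thus gave little check of the sort by YFP in these libraries. By RT-qPCR of sorted cells, the paper reports Arg1 expression confined to the YFP+ population. In the ARG1- male replicate 14, Csf1, Csf1r, Csf2ra, Csf2rb and Csf3r were each at their lowest of the 12 libraries.

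**Figure D1:**
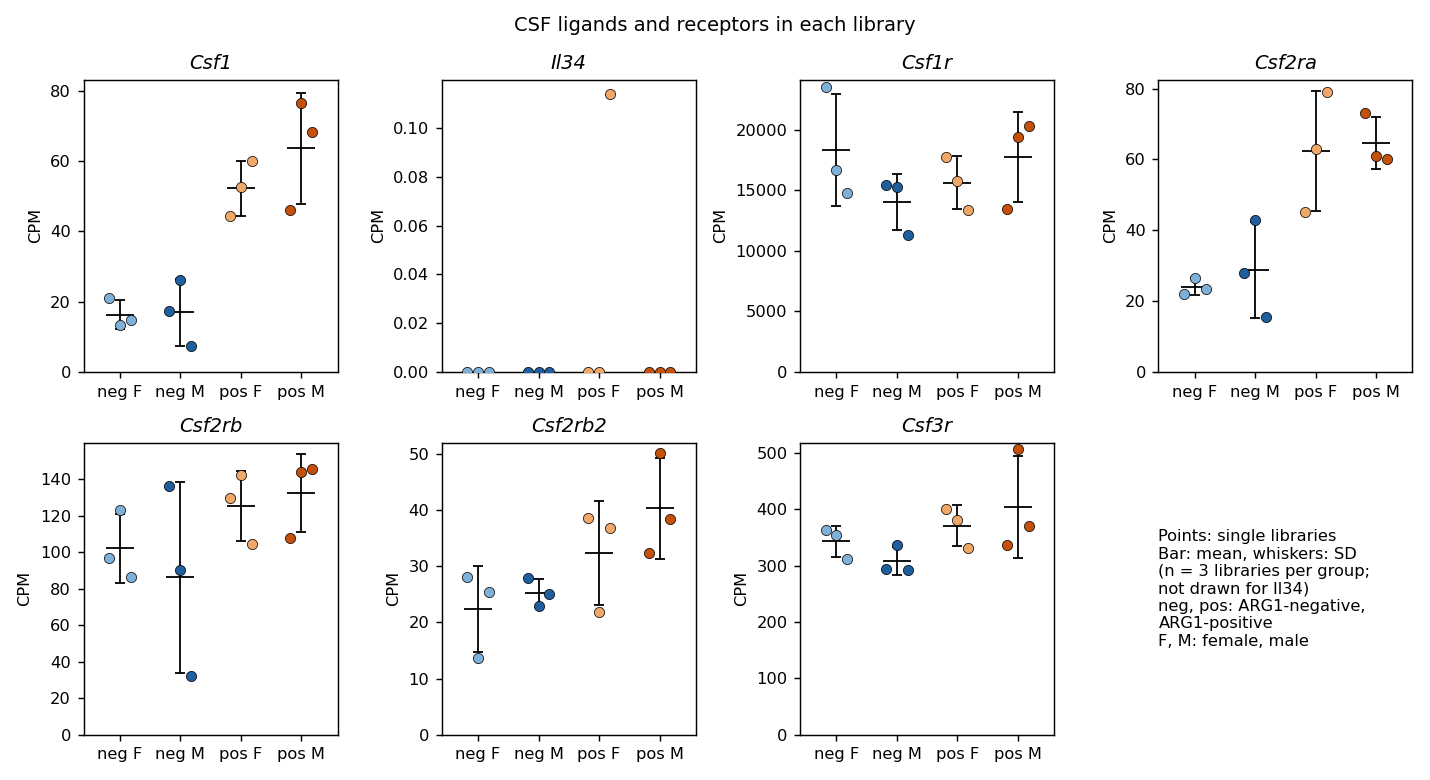
Each panel plots 1 gene in CPM on a linear axis that starts at 0, with a point for each library, and with a bar and whiskers for the mean and SD of 3 libraries per group except in the Il34 panel. Csf1 and Csf2ra show no overlap between ARG1- and ARG1+ libraries, while the points of the other receptors overlap and Il34 is above 0 in 1 library.

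Csf1 encodes the ligand CSF1 and lies on chr3:107741048-107760469, minus strand (GRCm38, as are all gene positions here), with 5281 bases of exon. The ARG1- females had 20.9, 13.3 and 14.7 CPM and the ARG1- males 17.3, 26.2 and 7.26 CPM. The ARG1+ females had 44.3, 52.7 and 60.0 CPM and the ARG1+ males 46.0, 76.6 and 68.5 CPM. Every ARG1+ library was thus above every ARG1- library, and the lowest ARG1+ value, of female replicate 7, exceeded the highest ARG1- value, of male replicate 6, by a wide margin.

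The mean of Csf1 was 16.6 ± 6.52 CPM in ARG1- and 58.0 ± 12.8 CPM in ARG1+ microglia (SD, n = 6 each). The log2 fold change was 1.80 (SE 0.27, 95% interval 1.21 to 2.39; adjusted p = 0.00133, edgeR quasi-likelihood test with Benjamini-Hochberg adjustment). In bulk libraries, a smaller number of expressing cells and less RNA per cell cannot be told apart. Leaving out any of the 12 libraries kept the log2 fold change of Csf1 between 1.65 and 1.98.

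Il34 encodes the other ligand of CSF1R, which in the brain is known mainly from neurons. It lies on chr8:110741829-110805924, minus strand, and 97 bases of its 1959 bases of exon overlap antisense genes. ARG1+ female replicate 15 held 4 counts of it (0.114 CPM), and each of the other 11 libraries held 0. That library is also the one with the most Arg1 counts, 52, where Arg1 stood at 0 in all ARG1- libraries. Csf1 made up 99.5% of the ligand counts per kilobase of exon there and 100% in each of the other libraries.

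Csf1r encodes the receptor for both ligands and lies on chr18:61100598-61132149, plus strand, with 5774 bases of exon. The ARG1- females had 23532, 16718 and 14759 CPM and the ARG1- males 15425, 15321 and 11353 CPM. The ARG1+ females had 17786, 15784 and 13374 CPM and the ARG1+ males 13467, 19459 and 20314 CPM. The populations overlapped over most of their range, and the highest and the lowest of the 12 values were both from ARG1- libraries.

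Csf1r was the third most abundant gene by mean CPM in ARG1- microglia (16185 ± 4024) and the second in ARG1+ microglia (16697 ± 2973; SD, n = 6 each). It alone took 1.16% to 2.13% of all counts in ARG1- libraries and 1.40% to 2.02% in ARG1+ libraries. Its log2 fold change was 0.05 (SE 0.16; adjusted p = 0.861, edgeR), and its 95% interval of -0.29 to 0.40 bounds a difference in either direction. Leaving out the ARG1- male replicate 14 or the ARG1+ male replicate 16 turned its sign, to -0.02 and -0.003. Hmgxb3, on the other strand, shares 873 exonic bases with Csf1r and stood at 50.2 and 63.4 CPM in ARG1- and ARG1+ microglia, and the strand setting of the counting is not given in the sources used here.

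The ligand and its receptor were also set against each other within a library, per kilobase of exon, a ratio that was added after the values had been seen. The log2 ratio of Csf1 to Csf1r was -9.87 ± 0.48 in ARG1- and -8.05 ± 0.28 in ARG1+ libraries (SD, n = 6 each), a difference of 1.82. It is given as a description, with no test, since it follows from the values of Csf1 and Csf1r above. On the linear scale this is 937 Csf1r counts for each Csf1 count, per kilobase, in ARG1- and 265 in ARG1+ microglia.

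Csf2ra encodes the alpha chain, which gives the GM-CSF receptor its specificity, and lies on chr19:61223957-61228429, minus strand, with 2871 bases of exon. The ARG1- females had 22.1, 26.6 and 23.4 CPM and the ARG1- males 27.8, 42.8 and 15.6 CPM. The ARG1+ females had 45.1, 63.0 and 78.9 CPM and the ARG1+ males 73.0, 60.8 and 60.1 CPM. The populations did not overlap, but the ARG1- male replicate 6, at 42.8 CPM, came close to the ARG1+ female replicate 7, at 45.1 CPM.

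The mean of Csf2ra was 26.4 ± 9.12 CPM in ARG1- and 63.5 ± 11.7 CPM in ARG1+ microglia (SD, n = 6 each). This is a log2 fold change of 1.27 (SE 0.22, 95% interval 0.79 to 1.75; adjusted p = 0.0029, edgeR). Without any single library it stayed between 1.18 and 1.46.

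Csf2rb encodes the common beta chain, which carries the signal of GM-CSF, IL-3 and IL-5. It lies on chr15:78325752-78353847, plus strand, with 7277 bases of exon. The ARG1- females had 96.9, 123 and 86.5 CPM and the ARG1- males 136, 90.3 and 32.2 CPM. The ARG1+ females had 130, 142 and 105 CPM and the ARG1+ males 108, 144 and 146 CPM. The spread was wide among ARG1- libraries, chiefly through male replicate 14 at 32.2 CPM, and the populations overlapped.

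The log2 fold change of Csf2rb was 0.46 (SE 0.27, 95% interval -0.12 to 1.04; adjusted p = 0.285, edgeR), from 94.2 ± 36.2 to 129 ± 18.5 CPM (SD, n = 6 each). Without the ARG1- male replicate 14 it was 0.29. The interval includes 0.

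Csf2rb2 encodes the second beta chain and lies 20030 bases from Csf2rb on chr15:78282507-78305721, minus strand, with 4740 bases of exon. The ARG1- females had 28.0, 13.7 and 25.3 CPM and the ARG1- males 27.9, 22.8 and 25.1 CPM. The ARG1+ females had 38.6, 21.8 and 36.7 CPM and the ARG1+ males 32.3, 50.1 and 38.3 CPM. A single ARG1+ library, female replicate 8, fell within the ARG1- range, and the other 5 were above it.

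The log2 fold change of Csf2rb2 was 0.60 (SE 0.21, 95% interval 0.15 to 1.05), from 23.8 ± 5.32 to 36.3 ± 9.24 CPM (SD, n = 6 each), and the adjusted p of 0.0691 in edgeR missed the limit. Scaling by library totals (adjusted p = 0.0395), keeping only genes that reached 10 counts throughout (0.0387) and DESeq2 (0.0163) brought it past the limit, as did leaving out ARG1- female replicate 1 (0.0493) or ARG1+ female replicate 8 (0.0394). Over all alternatives of Csf2rb2 its adjusted p ranged from 0.0163 to 0.146.

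Csf2rb and Csf2rb2 are close copies, so a read can match both. Their coding sequences, of 2688 and 2634 bases in GENCODE M21, aligned over 2628 bases with 125 differences, an identity of 95.2%. Of the 75-base windows in a transcript, 10.7% of Csf2rb and 11.1% of Csf2rb2 occurred exactly in the other gene. The 75-base coding stretch with the most differences, 14 among 1494 stretches compared, is shown with capitals at the bases that differ, beside a stretch of 0 differences, since these decide where a read can be assigned.
Csf2rb, most different, chr15:78338905-78338979, plus strand: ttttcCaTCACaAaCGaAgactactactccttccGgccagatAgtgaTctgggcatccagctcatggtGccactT
Csf2rb2, most different, chr15:78294352-78294426, minus strand: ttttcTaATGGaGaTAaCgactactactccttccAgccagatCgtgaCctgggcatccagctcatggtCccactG
Csf2rb and Csf2rb2, identical, chr15:78341391-78341465, plus strand, and chr15:78291844-78291918, minus strand: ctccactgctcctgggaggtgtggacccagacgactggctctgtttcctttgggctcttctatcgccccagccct

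The split of the counts between the beta chains was therefore read within each library. Csf2rb2 held 22.4%, 10.01% and 22.7% of the summed counts in ARG1- females and 17.0%, 20.2% and 43.8% in ARG1- males. It held 22.9%, 13.3% and 26.0% in ARG1+ females and 23.1%, 25.8% and 20.8% in ARG1+ males. The ARG1- male replicate 14 stood apart at 43.8% (exact 95% binomial interval 41.6% to 46.0%, for counting error only), in the library where Csf2rb was lowest and Csf2rb2 was within the range of the others.

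The mean share of Csf2rb2 was 22.7 ± 11.4% in ARG1- and 21.98 ± 4.69% in ARG1+ cells (SD, n = 6 each; exact two-sided permutation p = 0.922). Leaving out the ARG1- male replicate 14 or the ARG1+ female replicate 8 turned the difference of -0.69 percentage points to 3.53 and 1.05. With both beta chains summed as 1 feature, the level was 118 ± 35.4 CPM in ARG1- and 165 ± 21.9 CPM in ARG1+ microglia. For the sum, the log2 fold change was 0.49 (SE 0.20, 95% interval 0.04 to 0.93; adjusted p = 0.132, edgeR).

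**Figure D2:**
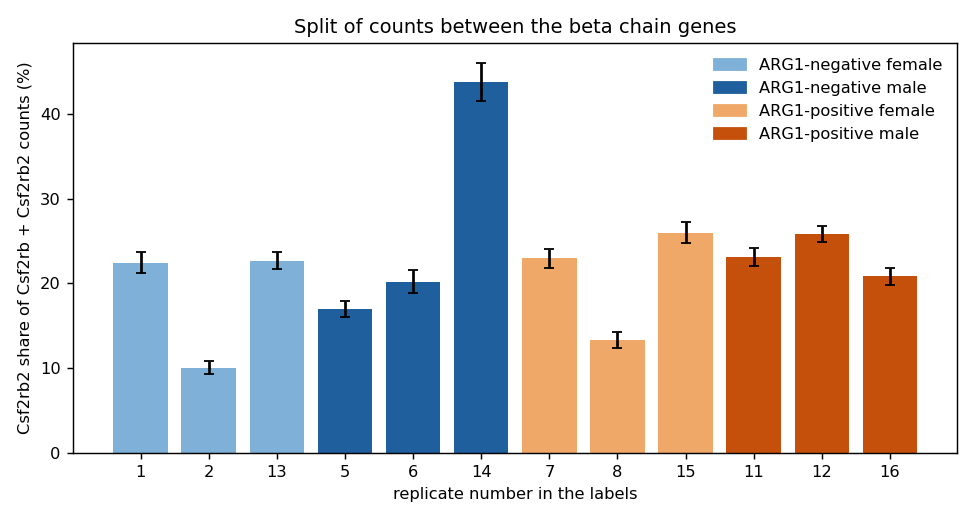
Bars give, for each library, the share of Csf2rb2 in the summed counts of Csf2rb and Csf2rb2 in percent, with exact 95% binomial intervals for counting error, coloured by group and named by replicate number. Most libraries lie between 17.0% and 26.0%, with female replicates 2 and 8 lower and male replicate 14 highest at 43.8%.

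The alpha chain was also set against the summed beta chains within a library, per kilobase of exon, again a ratio added after the values had been seen. Its log2 value was -0.98 ± 0.42 in ARG1- and -0.21 ± 0.42 in ARG1+ libraries (SD, n = 6 each), a difference of 0.77. It is likewise a description, with no test. The ratio depends on the exon bases taken for Csf2rb, 7277 over all its transcripts against 4900 in the transcript with the longest coding sequence. How reads that match both beta chains were counted is not given in the sources used here. Individual libraries ran from -1.34 to -0.21 in ARG1- and from -0.72 to 0.31 in ARG1+ microglia, so they overlapped. The ARG1- male replicate 6 was the highest of its population.

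Csf3r encodes the G-CSF receptor and lies on chr4:126024550-126044440, plus strand, with 3609 bases of exon. The ARG1- females had 363, 354 and 312 CPM and the ARG1- males 295, 337 and 293 CPM. The ARG1+ females had 401, 381 and 331 CPM and the ARG1+ males 336, 506 and 370 CPM. The populations overlapped, and the ARG1+ male replicate 12 had the highest value.

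The log2 fold change of Csf3r was 0.25 (SE 0.11, 95% interval 0.01 to 0.50; adjusted p = 0.159, edgeR), from 325 ± 30.1 to 388 ± 63.9 CPM (SD, n = 6 each). Library totals (adjusted p = 0.0377) and DESeq2 (0.0469) brought it past the limit. Of the neutrophil genes, Ly6g, Mpo and Retnlg were at 0 counts in all 12 libraries. S100a8, S100a9, Ngp and Ltf averaged 0.152, 0.245, 0.212 and 0.307 CPM in ARG1- libraries and 0 in ARG1+ libraries. All counts of S100a9, Ngp and Ltf (44, 38 and 55) came from a single ARG1- library, male replicate 6. Elane and Camp had at most 1 and 2 counts, and only in ARG1+ libraries. Cxcr2, the only 1 tested, stood at 4.33 CPM in ARG1- and 8.62 CPM in ARG1+ libraries, with an adjusted p of 0.108 in edgeR. The summed CPM of 10 neutrophil genes was 3.75 to 6.97 in ARG1- and 4.90 to 11.5 in ARG1+ libraries. Cxcr2 had the highest mean of the 10 in both populations. In ARG1- male replicate 6, however, S100a9, Ngp and Ltf together made up most of the sum. The part of neutrophil genes in the level of Csf3r was not tested.

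Per kilobase of exon, a scale for comparing genes, exon bases were counted over all transcripts of a gene. For Csf2rb these were 7277, where the transcript with its longest coding sequence has 4900, so its place depends on this choice. The order of the mean levels in ARG1- microglia was Csf1r (2803 CPM per kilobase), Csf3r (90.2), Csf2rb (12.9), Csf2ra (9.19), Csf2rb2 (5.02) and Csf1 (3.15), with Il34 at 0. In ARG1+ microglia it was Csf1r (2892), Csf3r (107), Csf2ra (22.1), Csf2rb (17.7), Csf1 (10.99) and Csf2rb2 (7.66). Csf1r and Csf3r stood apart from all others in both populations. Each neighbouring pair from Csf2rb down to Csf1 in ARG1-, and from Csf2ra down to Csf2rb2 in ARG1+ microglia, overlapped between libraries, so those places in the order are not separated.

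**Figure D3:**
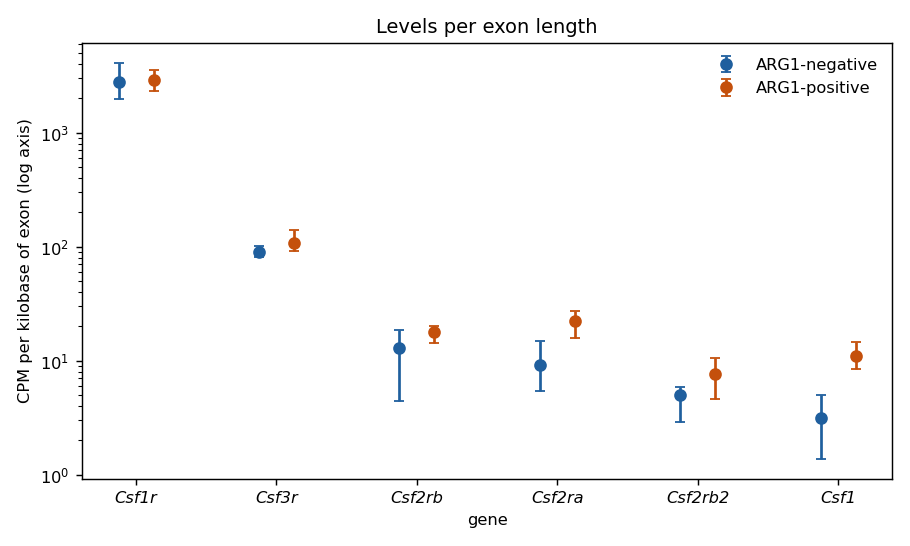
Points give the mean level per kilobase of exon on a log axis and bars the lowest and highest of 6 libraries, with ARG1- microglia in blue and ARG1+ microglia in orange. Csf1r lies above 1966 and Csf3r above 81.1 CPM per kilobase in every library, and the bars of Csf1 do not meet between the populations.

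Within females, the log2 fold change with ARG1 status was 1.68 (SE 0.39; adjusted p = 0.0308, edgeR) for Csf1 and 1.37 (SE 0.32; adjusted p = 0.0307) for Csf2ra, where 6.76% of all genes tested were called. Within males, Csf1 was 1.91 (SE 0.40; adjusted p = 0.0275) and Csf2ra 1.17 (SE 0.32; adjusted p = 0.0576), where 5.13% of all genes were called. The 3 ARG1+ libraries lay above the 3 ARG1- libraries for both genes in females, as for 15.4% of all genes tested, and in males, as for 15%, where Csf2rb2 was also apart (22.8 to 27.9 against 32.3 to 50.1 CPM; adjusted p = 0.214). The log2 fold changes stayed above 0 without any single library, at 1.56 to 1.90 for Csf1 and 1.19 to 1.60 for Csf2ra in females, and at 1.57 to 2.38 and 0.90 to 1.58 in males. The calls changed more: leaving out any of 6 libraries left no member past the limit in females (ARG1- replicates 2 and 13, ARG1+ replicates 7, 8 and 15, and the ARG1+ male replicate 16), and leaving out any of 4 libraries left none in males (ARG1- male replicate 5, ARG1+ male replicates 12 and 16 and ARG1+ female replicate 8).

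The differences between these sex-specific effects were 0.23 (95% interval -0.96 to 1.42) for Csf1 and -0.20 (-1.18 to 0.78) for Csf2ra, as male minus female on the log2 scale. Csf1r had the largest, 0.57 (-0.06 to 1.20; adjusted p = 0.578, edgeR), from -0.23 in females and 0.34 in males. No member was called for a sex difference in its ARG1 effect. Among all genes edgeR called 0% (0 genes, with 1576 at an unadjusted p under 0.05) and DESeq2 287. Between males and females, no member was called in ARG1- (0.0946% of all genes called, 16 in edgeR and 397 in DESeq2) or ARG1+ microglia (0.0355%, 6 in edgeR and 38 in DESeq2).

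**Figure D4:**
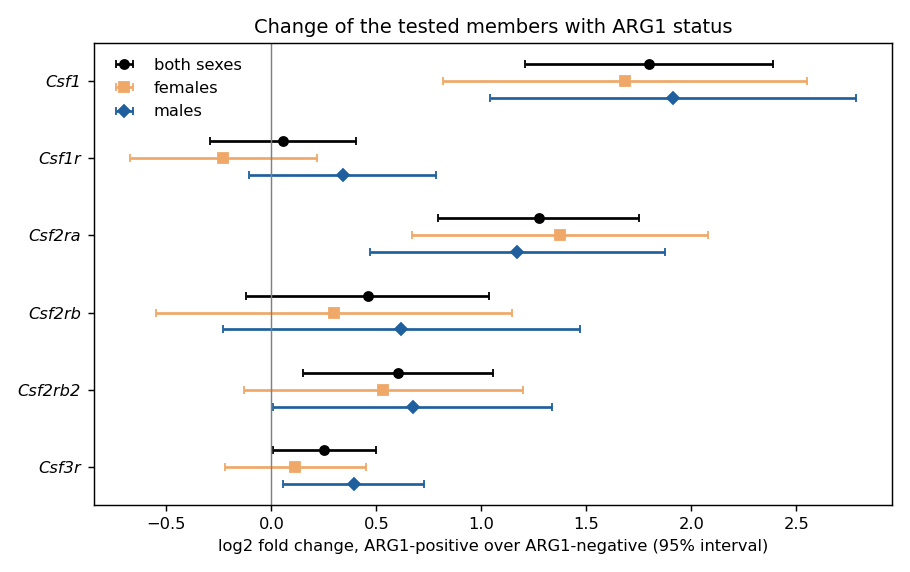
The horizontal axis gives the log2 fold change of ARG1+ over ARG1- microglia with its 95% interval, for 6 genes, over both sexes (n = 6 against 6 libraries) and within females and males (n = 3 against 3). The intervals of Csf1 and Csf2ra lie wholly above 0 in all 3 fits, and those of Csf1r include 0 in all 3.

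Genes that work with these receptors were counted from 5 lists, against a median log2 fold change of 0.06 over all genes tested. Of 29 genes of CSF1R proximal signalling, all tested, 3 were higher, 4 lower and 22 not past the limit, with a median of 0.12, so 7 of 29 were called where 15.9% of all genes were. The higher ones were Cbl, a ubiquitin ligase that turns the receptor over (36.9 ± 13.5 to 86.4 ± 25.1 CPM, log2 fold change 1.22, adjusted p = 0.00914 in edgeR), Pik3r1, a regulatory subunit of PI3 kinase (64.7 to 96.3 CPM, 0.57, adjusted p = 0.0234), and the adaptor Dok2 (0.265 to 5.997 CPM, adjusted p = 0.0264). Dok2 was near the limit of detection in ARG1- microglia, so no fold is given.

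Lower genes of that list included Tyrobp, the adaptor DAP12 (1317 ± 137 to 661 ± 160 CPM, log2 fold change -0.997, adjusted p = 0.00153 in edgeR), the Src family kinase Lyn (794 to 667 CPM, -0.25, adjusted p = 0.0419), and the phosphatase Ptpn6 (812 to 651 CPM, -0.32, adjusted p = 0.0253). The populations did not overlap for Tyrobp. Inpp5d, the lipid phosphatase SHIP1 and an abundant member of the list, was at 796 and 895 CPM (0.17, adjusted p = 0.483).

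Of 20 JAK-STAT genes of the GM-CSF and G-CSF receptors, 2 were higher, none lower and 18 not past the limit, with a median of 0.37; over all genes 6.44% were higher and 9.42% lower. They were Stat5b, a transcription factor downstream of the beta chain (41.7 to 58.8 CPM, log2 fold change 0.51, adjusted p = 0.0291 in edgeR), and Pias1, an inhibitor of STAT proteins (128 to 175 CPM, 0.47, adjusted p = 0.0433). The kinase Jak1 (318 and 338 CPM, adjusted p = 0.724) and Stat6 (327 and 295 CPM, adjusted p = 0.544) did not pass it.

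Of 15 related ligands and receptors, 8 were tested, with a median of -0.40, and 1 was called, a share near the 15.9% of all genes. Trem2, a receptor that signals through DAP12, was lower (1634 to 1244 CPM, log2 fold change -0.40, adjusted p = 0.0109 in edgeR). Kitl, the ligand of KIT, was at 6.70 and 4.12 CPM (-0.55, adjusted p = 0.574), and Il3ra, the alpha chain of the IL-3 receptor, at 2.56 and 3.04 CPM (adjusted p = 0.643). The ligands Csf2, Csf3, Il3 and Il5 had 0 counts in all 12 libraries, which allows at most 0.102 CPM in a library.

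Of 15 transcription factors of the myeloid lineage, 4 were higher, 1 lower and 10 not past the limit, with a median of 0.36, beside 6.44% higher and 9.42% lower over all genes. Spi1, which encodes PU.1, was lower (472 ± 36.6 to 318 ± 41.9 CPM, log2 fold change -0.58, adjusted p = 0.0023 in edgeR). The higher ones included Runx1 (37.8 to 73.0 CPM, 1.01, adjusted p = 0.00566), the immediate early factor Egr1 (7.87 to 19.4 CPM, 1.31, adjusted p = 0.00825) and its co-repressor Nab2 (18.6 to 31.5 CPM, 0.75, adjusted p = 0.0346). Irf8, a factor that microglia need, was at 621 and 545 CPM (-0.20, adjusted p = 0.264).

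Of 5 genes for shedding of CSF1 and CSF1R, 1 was higher, with a median of 0.21, a share near that of all genes called (15.9%). Adam17, the protease that cuts both from the cell surface, went from 412 ± 40.5 to 536 ± 86.8 CPM (log2 fold change 0.38, adjusted p = 0.043 in edgeR), and Adam10 was at 627 and 710 CPM (0.18, adjusted p = 0.357).

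**Figure D5:**
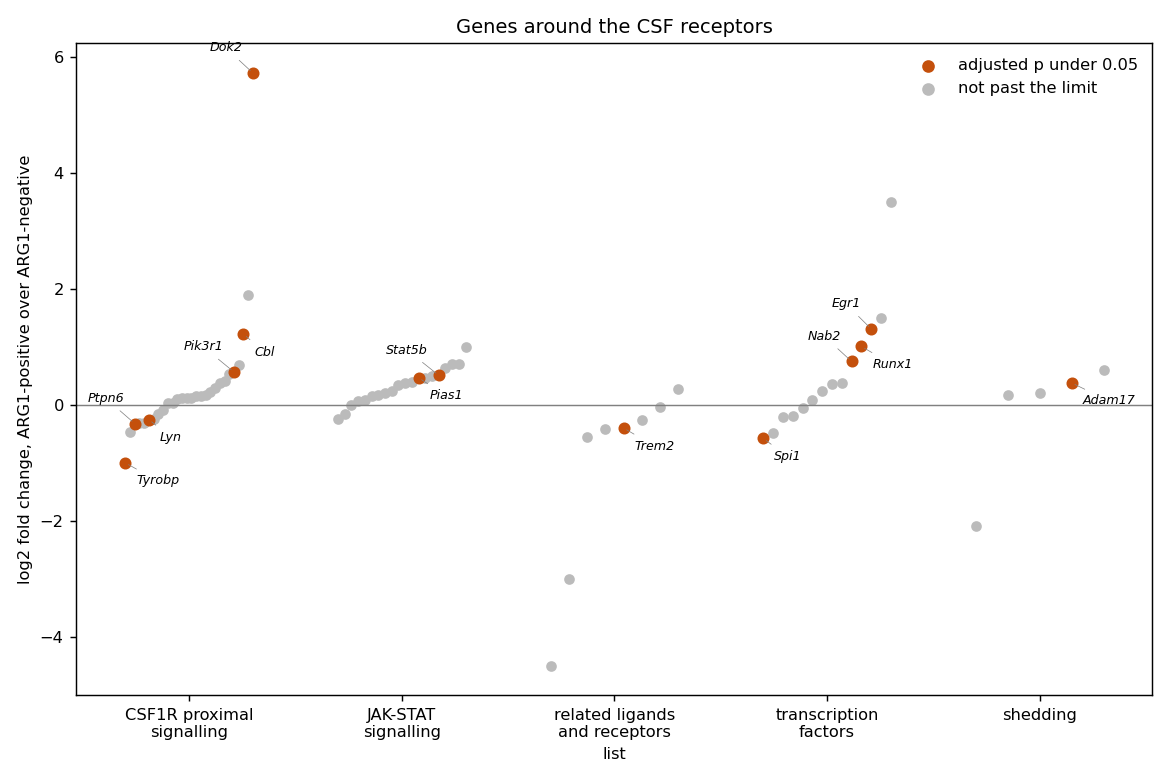
Each point is a tested gene of 1 of 5 lists, without genes that are not reported here, at its log2 fold change of ARG1+ over ARG1- microglia, ordered within its list, and genes at an adjusted p under 0.05 are coloured and named. Most points lie near 0, Tyrobp is the lowest of the CSF1R signalling genes and Spi1 of the transcription factors, and Dok2 lies high because its level in ARG1- microglia was near 0.

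Genes most alike in pattern to a member were ranked by Pearson's r of log2 CPM over the 12 libraries, as a description, since the libraries share scaling and ARG1 status. For Csf1 these included Rere (0.96), and for Csf2ra they included Gm21887 (0.95), at a mean of 0.642 CPM, and Csf1 itself (0.93). Within groups, r of Csf2ra was 0.92 with Gm21887 and 0.71 with Csf1. For Csf1r the genes most alike were Cyfip1 (0.96), Man2b1 (0.96) and Slco2b1 (0.95). Csf2rb was most like Tnks2, Fancd2 and Fubp3 (all 0.96), Csf2rb2 most like Numa1 (0.94), Sall3 (0.93) and Kdm2b (0.91), and Csf3r most like Pnpla7 (0.91), Arhgap35 (0.91) and Cd151 (0.88).

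Markers of the sorted cell type also moved with ARG1 status. The summed level of 8 microglial genes was 33358 to 40459 CPM in ARG1- and 24468 to 28543 CPM in ARG1+ libraries, with 6 lower and Sall1 higher, and Cx3cr1, used in the sort, at 4590 and 4801 CPM. The 8 border macrophage genes summed to 293 to 512 and 397 to 837 CPM. Stab1, the highest of the 8 by mean, was the only 1 called, as higher (239 and 431 CPM, adjusted p = 0.0277 in edgeR). Mrc1, which encodes the CD206 that the sort selected against, stood at 121 and 147 CPM (adjusted p = 0.371 in edgeR). Ms4a7 was at 0.353 and 2.73 CPM (adjusted p = 0.176 in edgeR) and Pf4 at 0.564 and 1.03 CPM (adjusted p = 0.687 in edgeR). Cbr2 was at 3.40 and 1.99 CPM and F13a1 at 2.79 and 1.93 CPM. Lyve1 and Cd163 were at 0 in ARG1- and averaged 0.0662 and 0.119 CPM in ARG1+ libraries. The sums were 5.12 to 14.1 and 1.89 to 6.70 CPM for monocyte, 10.6 to 24.6 and 14.1 to 34.3 for dendritic cell, at most 0.661 and 0.613 for T cell, 6.95 to 17.0 and 2.32 to 9.09 for neuron, 176 to 224 and 130 to 151 for astrocyte, 263 to 383 and 171 to 261 for oligodendrocyte and 28.0 to 56.7 and 44.0 to 83.3 for endothelial genes. Single genes made up most of some sums, given as means in ARG1- and ARG1+ libraries. Slc1a3 (176 and 131 CPM, adjusted p = 0.00817 in edgeR) led the astrocyte genes and was called lower. Cnp (194 and 133 CPM, adjusted p = 0.00467 in edgeR) led the oligodendrocyte genes and was also called lower. Of the monocyte genes, Plac8 was called lower (6.75 and 1.32 CPM, adjusted p = 0.00466 in edgeR). Pecam1 (36.5 and 53.1 CPM) led the endothelial and Zbtb46 (11.6 and 20.4 CPM) the dendritic cell genes. Whether any of these marker genes had a part in the difference of Csf1 or Csf2ra was not tested.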

How the data were processed

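The authors sorted the cells, made cDNA with SMART-Seq v4 and libraries with Nextera XT, and deposited raw counts per gene, without normalization. Per the labels' processing notes the tools were bcl2fastq 2.20.0, STAR 2.6.1d, featureCounts 1.5.1 and DESeq2 1.28.1, on GRCm38. All 12 columns were matched to libraries by name, and 0 were left unused. Symbols and exon lengths came from GENCODE M21, which matched 55227 of 55487 identifiers.

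Counts were filtered with filterByExpr on the 4 groups, scaled by TMM and tested with edgeR 4.0.16 (R 4.3.3; glmQLFit and glmQLFTest, ARG1 status and sex, or 4 group means for contrasts by sex), with Benjamini-Hochberg adjustment over 16908 genes and a limit of 0.05. Fits were tested on simulated counts. Shares within a library were compared by exact permutation over libraries, with no pairing of ARG1+ and ARG1- libraries. The 12 pairs of replicate libraries gave chi-squares of 40.7 to 125 per degree of freedom, far over sampling noise, and each library was 1 replicate. Depth ran from 28356659 to 60625170 counts, and the binomial intervals and the 3-count limit cover counting error only, since amplified reads without molecular identifiers are not independent molecules. The study's legend counts its replicates as litters per sex, and does not say whether the sexes shared litters.

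Genes named are the 7 members, the 2 most abundant genes and up to 3 called genes in each direction of each list, and the 3 genes most alike to each tested member. Lyn, Nab2, Il3ra, the absent ligands, Hmgxb3, Arg1 and the single cell type markers were named after their values were seen. A few genes covered by this rule are not reported here. Members and lists were chosen with earlier results of these data known. Alternatives were DESeq2 1.42.0 (size factors, Wald test), upper-quartile factors, library totals, other filters, ARG1 status alone, a term for libraries numbered 13 to 16, thinned counts, and each library left out in turn.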

Additional observations from a re-analysis of the deposited data

Results flagged for a closer look

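Among 26 sets of 6 libraries searched, 4 held a library far from the other 5. Chance flags about 1 in 20 sets, or about 1.3 here, if the sets are independent and their values are not tied. The sets reuse the same counts, and the ties of Il34 at 0 and of the Csf1 share at 100% let any count flag a library. The 4 flags are therefore not compared with 1.3. Il34 was at 0.114 CPM in ARG1+ female replicate 15 and at 0 in the other ARG1+ libraries. In the same library the share of Csf1 in the ligand counts was 99.5%, against 100% in the others, which is the same 4 counts seen as a share. Csf2rb2 was at 13.7 CPM in ARG1- female replicate 2, against 22.8 to 28.0 CPM in the other ARG1- libraries. The share of Csf2rb2 in the summed beta chain counts was 43.8% in ARG1- male replicate 14, against 10.01% to 22.7% in the other ARG1- libraries.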

How the results depend on the processing

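Csf1 and Csf2ra stayed past the limit in 9 of 9 alternatives (log2 fold changes of 1.81 to 1.90 and 1.25 to 1.37) and without each of the 12 libraries, with adjusted p from 9.89e-10 to 0.00533 and from 3e-07 to 0.00934. The count of called members rose from 2 to 4 with library totals and with the DESeq2 Wald test, by Csf2rb2 and Csf3r, and was 2 to 3 without a library. Over all genes, 2682 were called, 4105 by DESeq2 and 1753 to 2669 without a library, the fewest without ARG1+ male replicate 12. The higher calls were 40.6% of all calls, 55.2% with library totals (which moved the median log2 fold change by 0.09) and 52.2% with DESeq2. Csf1r, at 0.05, was -0.016 to 0.18 without a library, and turned to -0.016 without ARG1- male replicate 14 and to -0.003 without ARG1+ male replicate 16. In females the count of called members was 0 to 2 without a library. In males it was 1, was 2 with at least 10 counts in every library and with DESeq2, through Csf2ra, and was 0 to 2 without a library. The share of Csf2rb2 differed by -3.23 to 3.53 points without a library, turning to 1.05 without ARG1+ female replicate 8 and 3.53 without ARG1- male replicate 14; both p-values were above the limit. The log2 ratios of Csf2ra to the beta chains and of Csf1 to Csf1r, both added after seeing the data, were 0.67 to 0.93 and 1.70 to 1.98 without a library. The count of shedding genes was 2 with DESeq2 size factors. The causes were not tested. Depth limits Il34, whose 4 counts allow no comparison. No paired analysis was possible because the groups share no replicate numbers in the labels, which do not say which ARG1+ and ARG1- libraries came from the same pooled tissue; the fits take them as independent.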
